A study of Mus musculus with 8 samples.

Results

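Gm28661, Gm10925, Gm28437, Gm13340 and Gm20594 are mouse genes on nuclear chromosomes whose sequence is the same as, or similar to, a part of mitochondrial DNA. They were taken by symbol from the count tables of cochlear RNA, as 5 of the 47628 entries that name a gene, and each was set against the mitochondrial gene it resembles in every mouse. All 5 passed the minimum of a mean normalized count over 10, as did 19366 entries in all. The series compared 4 WT mice with 4 Opa1+/- littermates, which carry the recurrent human OPA1 delTTAG deletion as a knock-in on one allele, in a mixed C57BL/6J × 129 Sv/Pas background. All mice were untreated and 21 days old, and RNA came from whole cochleae, so that fewer cells of a type and less RNA per cell cannot be told apart. The 4 WT mice carry the animal numbers 4, 5, 6 and 8, and the 4 Opa1+/- mice the numbers 2 and 7 and a pair of 3-digit numbers, of which the mouse with the lower number is called C here and the other D. The symbols were chosen by their counts in these libraries, with the Opa1+/- against WT contrast already known, so levels and ratios of the copies between genotypes are given as a description, with standard errors but no p-value.

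Stretches of mitochondrial DNA have been inserted into the nuclear chromosomes of mammals many times, and most of the resulting copies are annotated as pseudogenes. Recent insertions keep the sequence of the mitochondrial gene they came from, while older ones have gathered substitutions. The mitochondrial genes concerned here encode subunits of cytochrome c oxidase (mt-Co1, mt-Co2 and mt-Co3), a subunit of ATP synthase (mt-Atp6) and the large ribosomal RNA of mitochondria (mt-Rnr2). OPA1, the protein whose gene carries the deletion in these mice, is a dynamin-related GTPase of the inner mitochondrial membrane. It acts in membrane fusion and in the shaping of cristae.

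Alignment of the GENCODE vM21 transcripts gave 1 mitochondrial gene for each copy, called its parent below. Gm28661 matched mt-Co2 over 681 of its 684 bases, Gm10925 matched mt-Atp6 over 678 of 681, and Gm28437 matched mt-Co3 over 783 of 784, all with 100% identity. Gm13340 matched the whole of mt-Co1, 1545 bases, with 97.6% identity and 37 mismatches, of which 33 were transitions and 4 transversions. Gm20594 matched mt-Rnr2 over 435 bases with 88.5% identity, 41 mismatches and 9 gap bases. The description under which the 5 genes were listed names mt-Nd2 as a further parent, but no alignment to it was found for any of them, while mt-Co2 and mt-Co3 were found instead.

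The 3 identical copies lie side by side on chromosome 1 of GRCm38, on the minus strand, at chr1:24614885-24615565 (Gm28661), chr1:24613974-24614651 (Gm10925) and chr1:24613189-24613971 (Gm28437). Their order and spacing are those of the mitochondrial genome, and together with Gm29216 and Gm28438 they form a block of 5 copies over 3423 bases, chr1:24612775-24616197. Gm28439 and Gm10222 follow this block directly. Gm13340 lies at chr2:22588103-22589647, on the minus strand and within an intron of Myo3a, a myosin gene read from the other strand, and it stands in a block of 3 copies with Gm13341 and Gm13339 over 3243 bases. Gm20594 lies alone at chr6:79817916-79818364, on the plus strand, with its nearest annotated neighbours, Gm44271 and Gm4409, 107001 and 108049 bases away. All 5 have a single exon. Gm20594 is annotated as protein-coding, with the RefSeq synonym Mtrnr2l, and the other 4 as unprocessed pseudogenes.

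The difference between the 3 kinds of copy is visible in the sequences, read from the GENCODE transcripts in the direction of transcription. The last 120 bases of the aligned part of Gm10925 (chr1:24613974-24614093, minus strand) and of mt-Atp6 (chrM:8485-8604, plus strand) are shown once, because every base is the same.
Gm10925 and mt-Atp6: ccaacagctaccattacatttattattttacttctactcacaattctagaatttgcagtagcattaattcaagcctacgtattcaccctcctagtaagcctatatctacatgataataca
The next pair shows the 120 bases of Gm13340 (chr2:22588355-22588474, minus strand) that hold the most differences from mt-Co1 (chrM:6501-6620, plus strand), with the 6 differing bases in capitals.
Gm13340: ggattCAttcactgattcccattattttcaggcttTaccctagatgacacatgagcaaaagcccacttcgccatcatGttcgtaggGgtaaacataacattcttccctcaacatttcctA
mt-Co1: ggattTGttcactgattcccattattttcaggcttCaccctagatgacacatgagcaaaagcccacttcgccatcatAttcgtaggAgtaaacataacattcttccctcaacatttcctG
The third pair shows the most divergent stretch of Gm20594 (chr6:79817987-79818103, plus strand) beside mt-Rnr2 (chrM:1809-1922, plus strand), where 27 of 120 aligned columns differ and capitals mark bases that are changed or have no partner.
Gm20594: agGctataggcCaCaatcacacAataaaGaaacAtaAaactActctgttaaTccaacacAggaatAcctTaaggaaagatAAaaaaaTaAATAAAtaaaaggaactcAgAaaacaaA
mt-Rnr2: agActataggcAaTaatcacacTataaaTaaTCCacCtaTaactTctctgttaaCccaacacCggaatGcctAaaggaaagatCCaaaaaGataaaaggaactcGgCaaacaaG
The longest run that Gm20594 shares with mt-Rnr2 without a change, 65 bases at chr6:79818283-79818347 and chrM:2102-2166, is shorter than a sequenced read end of 80 bases.
Gm20594 and mt-Rnr2, longest shared run: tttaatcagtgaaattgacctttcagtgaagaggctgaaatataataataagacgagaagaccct

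Read length sets where these differences can be seen. Each read end was 80 nucleotides long, so every stretch of 80 bases in a copy was compared, without gaps, with the 37 mitochondrial genes. In Gm28661, Gm10925 and Gm28437, 100% of the 602, 599 and 704 windows of 80 bases were identical to mitochondrial sequence. In Gm13340 the share was 12.6% (185 of 1466 windows), and 65.0% had up to 2 mismatches. In Gm20594 it was 0 of 370 windows, a property of the reference sequence and not an estimate, and 2.43% had up to 2 mismatches. Seen from the mitochondrial side, 99.5% of the windows of mt-Co2, 99.5% of those of mt-Atp6, 99.9% of those of mt-Co3 and 37.6% of those of mt-Co1 were present in a nuclear copy, against 0 in mt-Rnr2. The reads were paired, so a fragment can reach beyond 1 window, and how reads with several matching places were counted is not given in the sources used here.

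**Figure D1:**
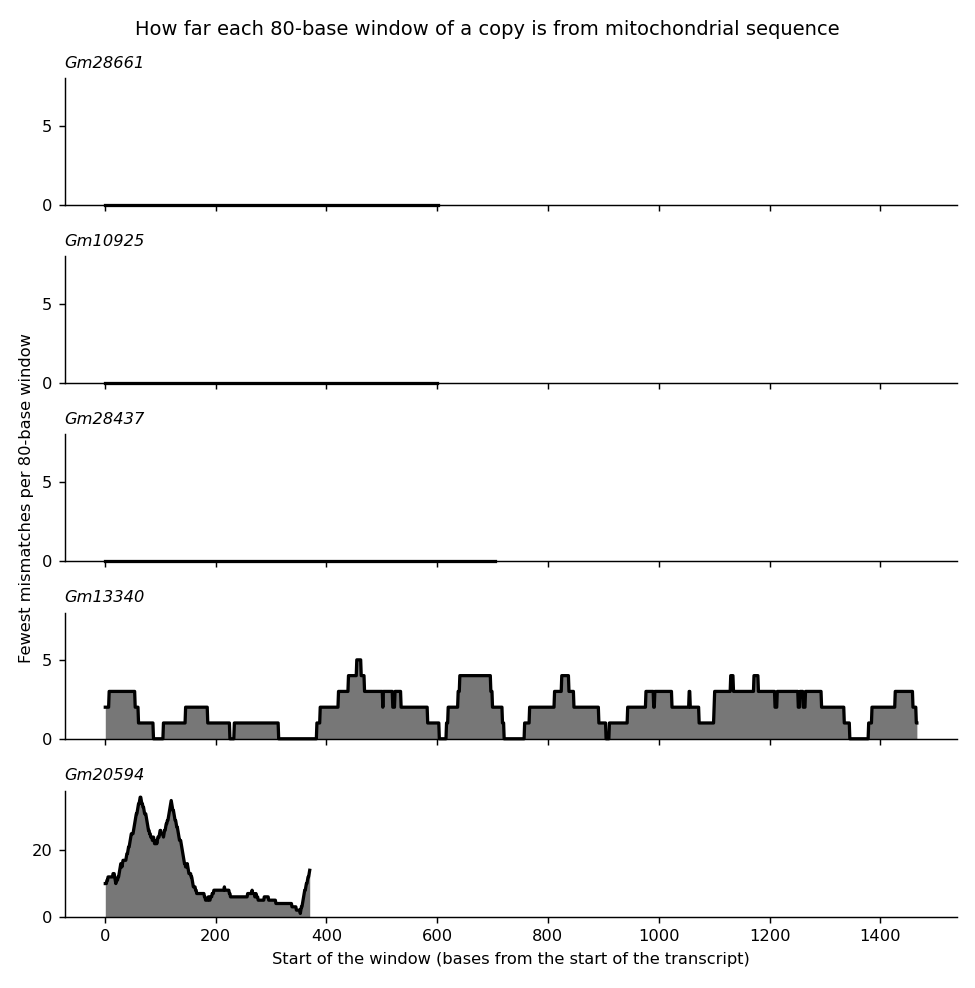
Fewest mismatches, without gaps, to any mitochondrial gene (y axis, bases, own scale for Gm20594) of each window of 80 bases along the 5 copies, by the window's start in the transcript (x axis, bases). The line of Gm28661, Gm10925 and Gm28437 stays at 0 throughout, Gm13340 touches 0 in 12.6% of its windows, and Gm20594 does not reach it.

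The libraries held 15978051 to 20828030 counts on named genes. The labels were checked on Opa1, whose mean was 119.7 ± 6.09 CPM in WT cochleae and 65.6 ± 4.42 CPM in those of Opa1+/- mice (SD, n = 4 per genotype), without overlap and with a log2 fold change of -0.87 (adjusted p = 0.00515, edgeR quasi-likelihood test). CPM relate a count to the library size, corrected by a TMM factor. Among the libraries, that of Opa1+/- mouse D had the lowest TMM factor, 0.948 against 0.983 to 1.06 in the other 7, and the highest level of all 5 copies. The parents mt-Co2, mt-Atp6, mt-Co3 and mt-Rnr2 were also highest in mouse D, and mt-Co1 in WT mouse 5. Mouse D had the largest share of counts on mitochondrial genes as well, 16.1%. Marker genes of hair cells, spiral ganglion neurons, stria vascularis, supporting cells and Schwann cells were all present. Of these lists, 5 of 5 Schwann cell, 0 of 5 supporting cell and 1 of 7 stria vascularis markers had a log2 fold change above 0. For hair cells and neurons it was 3 of 9 and 4 of 9. For erythroid, neutrophil and marrow, bone and tested muscle markers it was 7 of 7, 3 of 7, 2 of 5 and 0 of 5. The summed levels of all these lists overlapped between genotypes. The summed level of 7 erythroid markers ran from 7739 to 21425 CPM among WT and from 15040 to 25032 CPM among Opa1+/- mice, again highest in mouse D. The 6 muscle markers ran from 12.8 CPM, in mouse D, to 1669 CPM, in WT mouse 6. No gene of these lists was called by edgeR, and the part of these cell types and tissues in the results was not tested.

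The copies were among the most abundant entries of the tables. Ranked by mean CPM over the 8 mice, Gm10925 was the 3rd, Gm28661 the 7th, Gm28437 the 9th and Gm13340 the 23rd of 47628 entries, while Gm20594 was the 9998th. The 5 copies together took 3.90% to 5.34% of the counts of a mouse, and the 37 mitochondrial genes took 11.7% to 16.1%. On a scale corrected for length, the mean level of Gm10925 was 25959 CPM per kb beside 26292 for mt-Atp6, that of Gm28661 was 20838 beside 20799 for mt-Co2, and that of Gm28437 was 15567 beside 16183 for mt-Co3. Gm13340 reached 1904 CPM per kb beside 17925 for mt-Co1, and Gm20594 reached 31.7 beside 1945 for mt-Rnr2. Per length, the 3 identical copies were thus close to their parents, and Gm13340 and Gm20594 far below them.

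Nearby genes without mitochondrial sequence were far lower. The nearest such genes to the chromosome 1 copies, Tubb4b-ps2 and Lmbrd1, had mean counts of 290.1 and 1939, against 218296 to 314976 for the copies. Myo3a, in whose intron Gm13340 lies, had a mean count of 9.38 against 52895. Gm44271 and Gm4409, on either side of Gm20594, had mean counts of 0 and 0.625 against 253.4.

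Gm28661 and mt-Co2, whose product is a cytochrome c oxidase subunit, had nearly the same count in every mouse. In WT mice 4, 5, 6 and 8 the copy had 237199, 310344, 249446 and 234947 counts and the parent 237712, 311214, 250137 and 235457. In Opa1+/- mice 2, 7, C and D the copy had 232346, 290220, 212894 and 265846 counts and the parent 233015, 290878, 213482 and 266427. The copy was below the parent in 8 of 8 mice, by 510 to 870 counts, and stood at 99.7% to 99.8% of it in each. The log2 ratio of copy to parent had an SD within genotypes of 0.000508, which is 8.01 times smaller than the 0.00407 that a pair of separately drawn Poisson counts of this size would have. The difference of the mean log2 ratio between genotypes was -6.7e-05, and its sign turned when a single mouse was left out.

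Gm10925, the copy of the ATP synthase subunit gene mt-Atp6, had 297913, 396362, 313168 and 266990 counts in the WT mice, in the same order, and 286093, 362762, 264090 and 332427 in the Opa1+/- mice. The parent exceeded these by 5144, 5222, 4671 and 4159 counts in WT and by 6021, 5482, 5613 and 6712 in Opa1+/- mice. These raw excess counts did not overlap between genotypes, but they depend on depth, and as CPM they overlapped (204 to 294 in WT and 275 to 428 in Opa1+/-). The copy stood at 98.3% to 98.7% of the parent in WT and at 97.9% to 98.5% in Opa1+/- mice, again with overlap.

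Gm28437, the copy of mt-Co3, had 207002, 268333, 220574 and 199042 counts in WT and 196650, 247836, 183095 and 223834 in Opa1+/- mice. The parent exceeded it by 9463, 7901, 7833 and 6940 counts in WT and by 10180, 8342, 9289 and 10375 in Opa1+/- mice. The copy stood at 95.6% to 97.1% of mt-Co3 in WT and at 95.1% to 96.7% in Opa1+/- mice, so the groups overlapped here as well. The SD of the log2 ratio within genotypes was 0.0105 for Gm28437 and 0.00336 for Gm10925, beside 0.00435 and 0.00365 for separately drawn counts, which leave out any difference between mice.

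Gm13340 differed from the other 3 pseudogenes in that its count was far from its parent's. It had 47698, 68141, 42177 and 47817 counts in WT and 46997, 69553, 40447 and 60332 in Opa1+/- mice. For mt-Co1, the gene of the catalytic subunit of cytochrome c oxidase, the counts were 448177, 688516, 478361 and 451316 in WT and 445069, 609700, 395293 and 475320 in Opa1+/- mice. The copy therefore stood at 10.6%, 9.90%, 8.82% and 10.6% of the parent in WT and at 10.6%, 11.4%, 10.2% and 12.7% in Opa1+/- mice. Opa1+/- mouse D had the highest ratio and WT mouse 6 the lowest, and the other mice of the 2 genotypes overlapped. The mean log2 ratio was higher by 0.17 in the Opa1+/- group, against an SD within genotypes of 0.133, and the difference was 0.11 without mouse D and 0.11 without WT mouse 6.

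Gm20594 had far fewer counts than the other copies. They were 192, 249, 184 and 223 in WT mice 4, 5, 6 and 8, and 279, 349, 222 and 329 in Opa1+/- mice 2, 7, C and D. For mt-Rnr2 the counts were 41767, 67236, 49187 and 50577 in WT and 58076, 67747, 49223 and 57379 in Opa1+/- mice. Scaled to library size, Gm20594 was at 10.96, 12.16, 10.99 and 10.92 CPM in the WT animals and at 16.5, 17.5, 13.7 and 20.998 CPM in the Opa1+/- animals. On this scale the genotypes did not overlap, which was the case for 1 of the 5 copies, and the lowest Opa1+/- mouse was C. For the background, the genotypes did not overlap in 4.31% of all 19366 tested genes, and in 1.98% with Opa1+/- higher, and nothing is read from the comparison, because it is the contrast with which the gene was chosen.

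Set against mt-Rnr2, the genotypes of Gm20594 overlapped. Per 1000 counts of mt-Rnr2 there were 4.597, 3.70, 3.74 and 4.41 counts of Gm20594 in WT and 4.80, 5.15, 4.51 and 5.73 in Opa1+/- mice. Opa1+/- mouse C was below WT mouse 4, and the other 3 Opa1+/- mice were above every WT mouse. The 95% Wilson interval ran from 3.99 to 5.30 in WT mouse 4 and from 3.95 to 5.15 in Opa1+/- mouse C, which covers counting error only. The means were 4.11 ± 0.458 in WT and 5.05 ± 0.526 in Opa1+/- mice (SD, n = 4 each). The mean log2 ratio was 0.30 higher in Opa1+/- mice, and 0.23 higher without mouse D. Relative to the sum of the 37 mitochondrial genes in place of mt-Rnr2, the difference was 0.51.

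**Figure D2:**
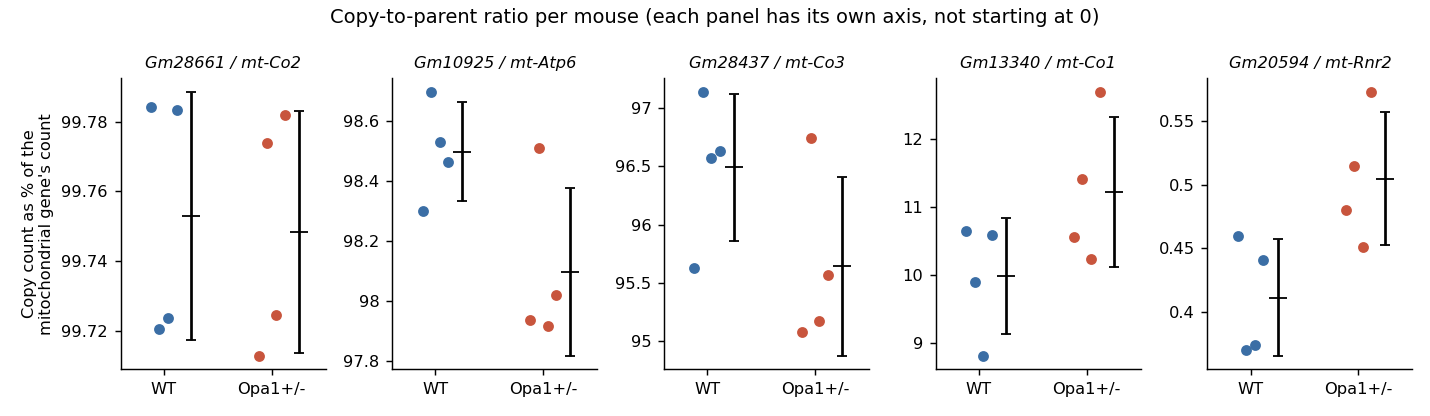
Count of each copy as a percentage of its mitochondrial parent's count (y axis, a separate scale in each panel, not starting at 0) in 4 WT and 4 Opa1+/- mice (points), with the mean and SD beside them. Gm28661, Gm10925 and Gm28437 lie between 95.1% and 99.8% in every mouse, Gm13340 between 8.82% and 12.7%, and Gm20594 between 0.370% and 0.573%, and the genotypes overlap in each of these 5 ratios.

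The fold changes of the 3 identical copies between genotypes were close to those of their parents. The log2 fold change of Opa1+/- against WT was 0.085 for both Gm28661 and mt-Co2 (SE 0.112 each), 0.093 for Gm10925 (SE 0.133) and 0.099 for mt-Atp6, and 0.054 for Gm28437 (SE 0.114) and 0.067 for mt-Co3. Gm13340 had 0.21 (SE 0.153) and mt-Co1 0.023, and Gm20594 had 0.61 (SE 0.124) and mt-Rnr2 0.29 (SE 0.110). Apart from Gm13340, Gm20594 and mt-Rnr2, each value was smaller than its SE, and the sign of Gm10925 and Gm28437 turned without WT mouse 8, at -0.019 and -0.036. Without Opa1+/- mouse D the values were 0.0011 for Gm28661, 0.0058 for Gm10925, -0.024 for Gm28437, 0.096 for Gm13340 and 0.50 for Gm20594.

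The parents offer no independent test of this contrast, because mt-Co2, mt-Atp6 and mt-Co3 hold nearly the same counts as the copies and mt-Rnr2 entered as the parent of Gm20594. Of the 5 parents, 0 were called by edgeR and 0 by DESeq2, and 1, mt-Rnr2, had an unadjusted p under 0.05 in each, as had 1302 and 1115 of all 19366 genes. Over all tested genes, edgeR called 0.0258% (5 genes) and DESeq2 0.119% (23 genes). No difference in fold change between a copy and its parent was tested.

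**Figure D3:**
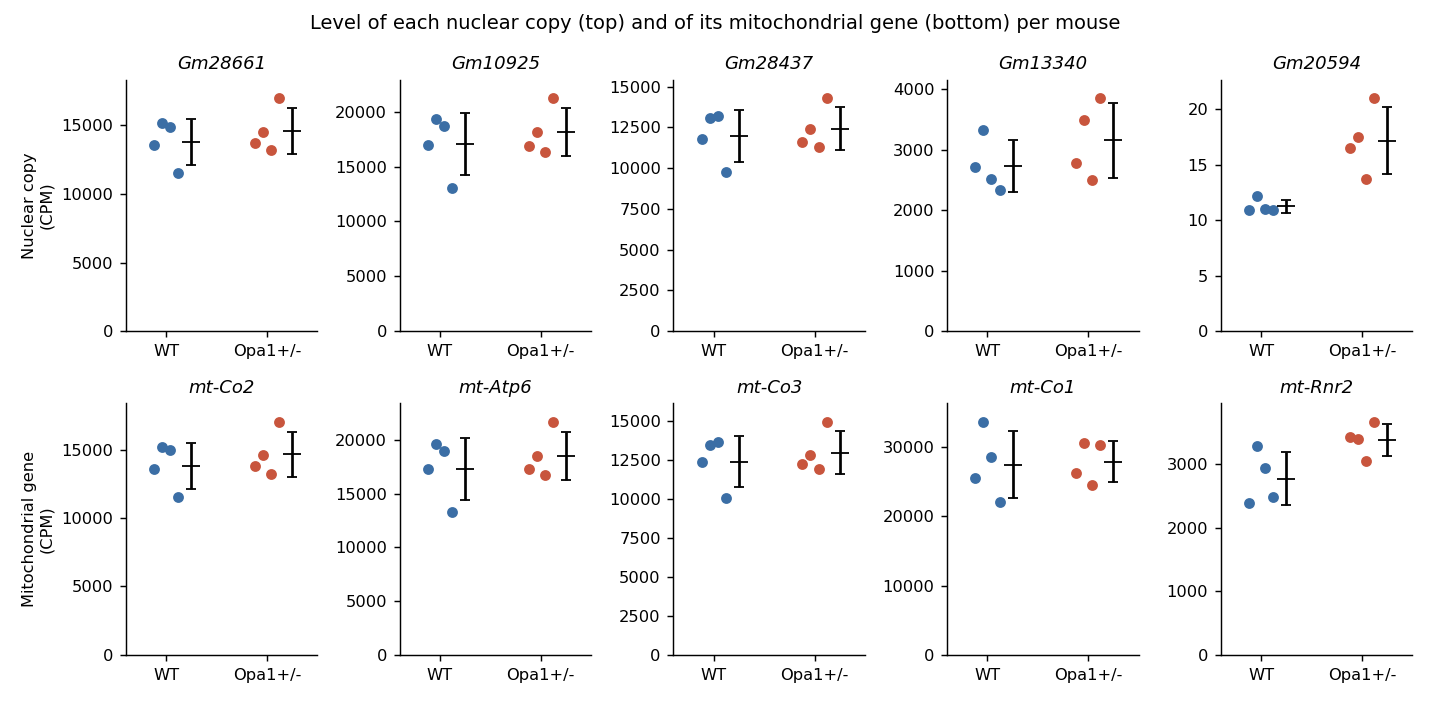
Level of each copy (top) and of its mitochondrial parent (bottom) in CPM (y axis, from 0) in 4 WT and 4 Opa1+/- mice (points), with the mean and SD beside them. Opa1+/- mouse D, at 20.998 CPM for Gm20594, is the highest mouse for all 5 copies, and Gm20594 is the copy whose genotypes do not overlap, as in 4.31% of all tested genes.

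Across the 8 mice, the genes that varied most like a copy differed between the 2 kinds of copy. Pearson's r of log2 CPM was taken between each copy and the other 19365 tested genes, as a description over 8 mice, in each of which both genes come from 1 library and share its depth. For Gm28661, Gm10925 and Gm28437 the most similar gene was the parent, with r of 0.999996, 0.9998 and 0.997. For Gm13340 it was Eno1b (r = 0.981), followed by Gm11877 and Gm11512, and mt-Co1 came 183rd (r = 0.812). For Gm20594 it was Gm7222 (r = 0.986), followed by Gm6576 and Rpl9-ps7, and mt-Rnr2 came 194th (r = 0.834).

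A list made by sequence alone shows where the 5 copies stand among other genes of this kind. It took every nuclear gene whose transcript aligns to a mitochondrial gene over at least 100 bases with at least 80% identity, which gave 29 genes, of which 23 are in the count tables and 21 were tested. The 23 took 5.85% to 8.13% of the counts of a mouse, equal to 47.9% to 50.5% of the counts on mitochondrial genes, and the 5 copies made up 64.7% to 66.9% of that. In the 5 genes whose 80-base windows were all identical to mitochondrial sequence, the level per length was 73.3% to 100.2% of the parent's. In the 7 genes with some identical windows it was 2.06% to 117.7%, and in the 11 without any it was 0.00070% to 1.63%. Gm20594 was the highest of these 11 on that scale.

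The other copies on this stretch of chromosome 1 spread more widely than the 3 described, which stood at 96.2% to 100.2% of their parents per length. In the same block, Gm29216, which matches the end of mt-Co1, stood at 117.7% of mt-Co1 and Gm28438 at 79.5% of mt-Nd3. In the block that follows, Gm10222 stood at 99.8% of mt-Nd4l and Gm28439 at 73.3% of mt-Nd4. These parents encode subunits of cytochrome c oxidase and of NADH dehydrogenase. In the block on chromosome 2, Gm13341 stood at 19.8% of mt-Co2 and Gm13339 at 20.1% of mt-Nd2, above the 10.6% of Gm13340. Gm11407, Gm4076, Gm11512 and Gm11410, all with under 2% of their windows identical, stood at 3.97%, 2.06%, 0.724% and 0.377% of their parents.

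**Figure D4:**
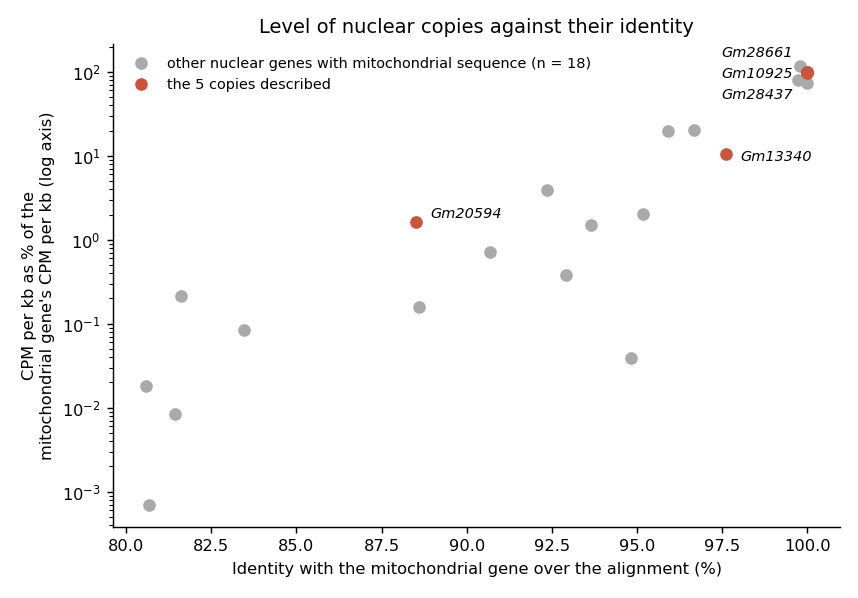
Mean level per kb of 23 nuclear genes with mitochondrial sequence, as a percentage of the parent's level per kb (y axis, log scale), against identity with the parent (x axis, %), with the 5 copies described in red. Gm28661, Gm10925 and Gm28437 sit at 100% identity and between 96.2% and 100.2% of the parent, Gm13340 at 10.6% and Gm20594 at 1.63%.

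Between genotypes, the 16 tested genes of the list that are not among the 5 copies all had a log2 fold change above 0. Their median was 0.28. Over all tested genes the median was 0.00040, and 50.1% were above 0. Leaving the 5 copies out of the list was chosen after the data were seen, so these values are a description only. None of the 16 was called by edgeR or DESeq2, and 1, Gm43841, had an unadjusted p under 0.05 by edgeR, against 1302 of all 19366 genes. Mouse D bore on these values, as it had the highest level of 14 of the 16, and without it 13 were above 0 with a median of 0.11. Without WT mouse 8, 13 were above 0 as well. With the 5 copies included, 21 genes had a median of 0.27, and 0.096 without mouse D. Parts of these genes match the same mitochondrial genes, so they cannot be taken as independent of each other.

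Mouse D was also looked at relative to the parents, after it was seen to be the highest mouse. The same copy counts enter these ratios, so a high ratio in mouse D is in part given by that choice. Among the 16 genes with under 50% of their windows identical, its copy-to-parent ratio was the highest of the 8 mice in 13, and over the 15 with counts in most mice it was at a median of 1.48 times the median of the other 7 mice. Gm13340 and Gm20594 were at 1.20 and 1.27 times. Among the 7 genes with over 50% of windows identical it was the highest in 1, at a median of 1.0006 times. Of these 7, Gm28439, Gm29216 and Gm28438 were at 0.967, 1.07 and 1.06 times. The difference between these sets, and any cause of it, was not tested. Several of the genes share a parent, and the share of all tested genes that are highest in mouse D was not determined.

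**Figure D5:**
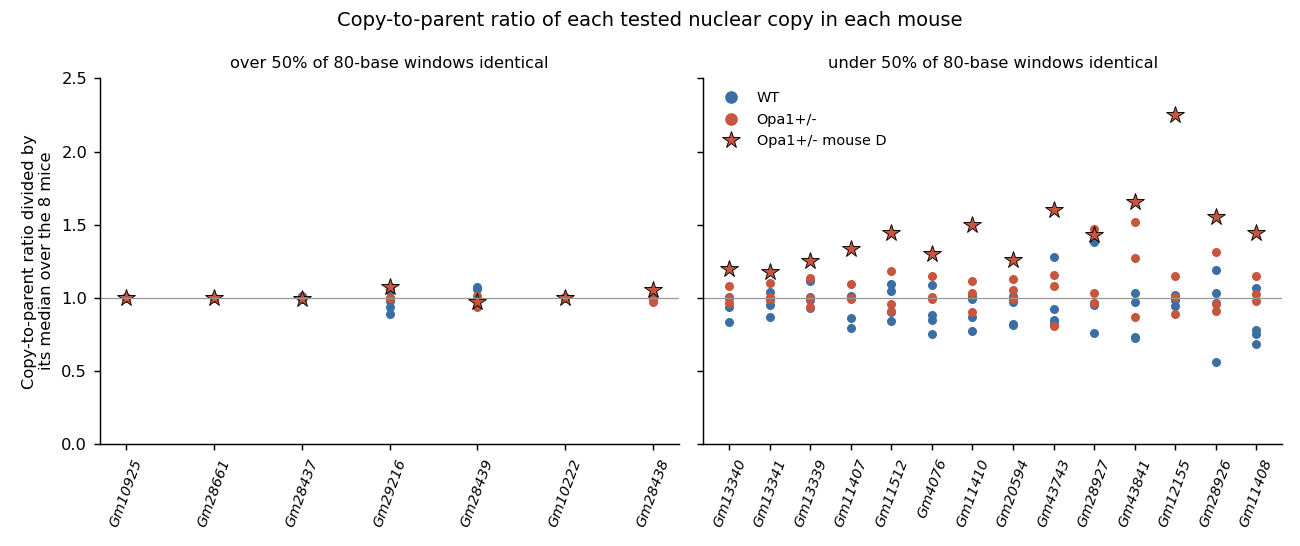
Copy-to-parent ratio of the 21 tested nuclear genes with mitochondrial sequence in each mouse, divided by the gene's median over the 8 mice (y axis, from 0), for genes with over 50% (left) and under 50% (right) of their 80-base windows identical to mitochondrial sequence. Opa1+/- mouse D (star) lies near 1 on the left and is the highest point of most genes on the right.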

How the data were processed

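Cochlear RNA of 8 mice was made into CORALL libraries and sequenced as paired reads of 80 nucleotides. The authors mapped reads to GRCm38 with STAR, used molecular identifiers against amplification bias, and deposited raw counts per gene symbol. The analysis ran in the CORALL Data Analysis Pipeline, whose use of strand and handling of reads with several matches are not given in the sources used here, so counts of these copies and parents are uncertain. For RNA extraction the labels give TRI Reagent or an RNeasy kit, and the study's methods TRI Reagent followed by NucleoSpin columns. Of 47643 entries, 15 have a numeral where a gene symbol should stand (0.112% to 0.124% of counts), and these were dropped.

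Transcripts of GENCODE vM21 were aligned to those of the 37 mitochondrial genes with blastn 2.17.0 (e-value 1e-05). The same fit as for the whole table was used, edgeR 4.0.16's quasi-likelihood test with TMM factors and Benjamini-Hochberg adjustment over 19366 genes with a mean normalized count over 10, at an adjusted p under 0.05. It was tested on simulated data with planted changes, drawn separately for each gene, and so not on pairs of genes with nearly the same counts. DESeq2 1.42.0, other scalings, no filter, omitted mice, other windows and other lists were alternatives. A pseudocount of 0.5 was added to both counts of a ratio. Named genes were the 5 copies, their parents, the 10 most abundant other copies, the nearest genes, the 3 genes most similar across mice, and Opa1, with Gm43841 named after its values were seen. There are 5 parents, where 4 were foreseen. Copies and lists were chosen with earlier results of these data known. The 4 mice per group are separate animals.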

Additional observations from a re-analysis of the deposited data

Results flagged for a closer look

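In 1 of 30 groups of 4 mice examined, for the level or the ratio to the parent of the 5 copies and the level of their parents, a single mouse lay far from the other 3. Gm20594 was at 12.16 CPM in WT mouse 5, while the other WT mice lay between 10.92 and 10.99 CPM. This mouse was still below every Opa1+/- mouse. Chance alone flags about 1 in 20 such groups.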

How the results depend on the processing

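With an adjusted p under 0.05, edgeR called 5 genes in all, DESeq2's Wald test 23, edgeR without a filter 12, and edgeR without both Opa1+/- mice with 3-digit numbers 0. Leaving out single mice gave 0 to 9 calls. Among the genes with mitochondrial sequence DESeq2 called 1, Gm20594, which was chosen with this contrast known, and edgeR 0 in every setting run. Their median log2 fold change was 0.093 to 0.27 in the other settings and 0.096 to 0.36 with single mice left out. Lowest was the list at 95% identity (11 genes, 0.093). Without the 5 copies, a list also chosen after seeing the data, it was 0.19 to 0.28 and 0.11 to 0.39.

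The log2 fold change of mt-Co1 was -0.0010 with total counts as the only scaling. With single mice left out it ran from -0.071 to 0.14 for mt-Co1, -0.012 to 0.16 for mt-Atp6 and -0.024 to 0.12 for mt-Co3, and with adjusted p above the threshold. For Gm20594 it was 0.50 to 0.70. With the sum of all mitochondrial genes in place of the parent, the log2 ratio difference was 0.00054 for Gm28661, 0.016 for Gm10925, -0.027 for Gm28437 and 0.51 for Gm20594, and the cause was not tested. Single mice left out gave -0.00023 to 0.00010, -0.0079 to -0.0049, -0.018 to -0.0096 and 0.23 to 0.35 for these, and 0.11 to 0.21 for Gm13340. Windows of 50 bases were identical in 27.5% of Gm13340 and 4% of Gm20594, and windows with up to 2 mismatches made up 65.0% and 2.43%. Library sizes without mitochondrial genes and their copies, chosen after seeing the data, left 5 calls.

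No paired analysis was possible because the labels do not give which WT and Opa1+/- mice came from the same litter. At 184 to 349 counts of Gm20594, counting error alone would give its log2 ratio an SD of 0.093, and the SD measured within genotypes was 0.154. For the other copies, the part that reads matching both copy and parent had in the counts was not tested.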
